A study of Homo sapiens with 12 samples.

Results

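The proteasome genes of MDA-MB-231 cells, a human triple-negative breast cancer line, were followed through a pair of knockdown experiments. The members were all genes whose symbol starts with PSMA to PSMG followed by a number, and 48 such genes stood in both gene tables, of 60558 gene identifiers that the tables share. Poly(A) RNA was sequenced in 12 libraries, 3 in each of 4 groups. In the NONO experiment, NONO_KD cells, in which the paraspeckle RNA-binding protein NONO was depleted with siRNA, were compared with their own NC cells. In the PKM2 experiment, PKM2_KD cells, in which the glycolytic enzyme and nuclear cofactor PKM2 was depleted with siRNA, were compared with a separate set of NC cells. The NC cells carry the genotype WT in the labels and no other agent is given for any group, and the experiments share no library. The labels do not say that the 3 libraries of a group came from separate cultures, so the P values measure the spread between these libraries, which may be technical.

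The proteasome is the protease that degrades ubiquitin-tagged proteins. Its core particle is a barrel of alpha and beta rings, and 3 kinds of beta subunit hold the active sites. A regulatory particle of ATPase (PSMC) and non-ATPase (PSMD) subunits caps the barrel, recognises ubiquitin, unfolds the substrate and feeds it in. Under interferon, cells exchange the constitutive catalytic subunits for immunoproteasome subunits, which alters the peptides made for MHC class I, and activator caps of the PSME family can take the place of the regulatory particle. Cancer cells depend on the proteasome, and its genes are known to be raised together by NFE2L1 (NRF1) when proteasome activity is limiting.

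The libraries held between 19861762 and 28455268 estimated counts. NONO fell in NONO_KD (log2 fold change -2.57) and PKM, the gene of which PKM2 is an isoform, fell in PKM2_KD (log2 fold change -3.32). The epithelial and hormone receptor markers CDH1, ESR1 and PGR did not exceed 0.41 TPM (a level scaled to library size and corrected for transcript length) in any library, whereas VIM was at 3291 TPM or more. The full list of 5 markers expected to be low summed to 28.85 to 38.57 TPM per library in the NONO experiment and 15.07 to 30.14 TPM in the PKM2 experiment. Of these 5, 2 were tested. Both fell after PKM2 knockdown (median log2 fold change -0.78) and neither was called after NONO knockdown. Of the leukocyte markers, PTPRC, CD3E and HLA-DRA did not exceed 0.15 TPM, while CD68 was at 53.8 TPM in PKM2_KD against 134 TPM in its NC. In bulk RNA, fewer cells that express a gene and less RNA per cell cannot be told apart. A library stood above its group for most proteasome genes in 2 of the groups. Replicate 3 of PKM2_KD gave the highest CPM (the read count of a gene scaled to library size) of its group for 42 of 46 members, and replicate 1 of the NC of NONO_KD for 37 of 46. The median coefficient of variation over members was 7.26% in PKM2_KD and 5.23% in the NC of NONO_KD, against 2.27% and 2.41% in the other two groups.

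Of the 48 members, 46 had enough reads to be tested in each experiment. The others were PSMA8, the testis form of an alpha subunit, and PSMB11, the thymus form of a catalytic subunit, whose highest counts in any library were 2 and 1. At the level of RNA per length, the regulatory subunit PSMD2 was the most abundant member in both sets of NC cells, at 730 ± 53.8 TPM (SD, n = 3) in the NONO experiment and 858 ± 18.2 TPM in the PKM2 experiment. The core subunit PSMA7 followed at 543 ± 34.0 and 687 ± 10.2 TPM. The median member stood at 130 TPM in the first and 149 TPM in the second. The constitutive beta subunits were the most abundant class by median (387 and 405 TPM), and the 3 detected immunoproteasome subunits the least (28.5 and 30.0 TPM). PSMB9 was the lowest of all tested members in both, at 9.07 ± 1.60 and 11.5 ± 1.38 TPM. These levels rest on an estimate of which transcript is used: PSMA5 stood at 43.4 TPM in the NC of NONO_KD and at 179 TPM in the NC of PKM2_KD, although its CPM, which uses no length, was similar (94.7 to 103 and 111 to 113).

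After NONO knockdown the proteasome genes changed little. PSMA4, PSMC3, PSMD4, PSMD7 and PSMD8 rose, and PSMA1, PSMB1, PSMB9, PSMC2 and PSMD5 fell, at an adjusted P below 0.05 (edgeR quasi-likelihood test, Benjamini-Hochberg over all genes). These 10 calls are 21.7% of the 46 members, against 33.4% of all 14832 genes tested, of which 16.2% rose and 17.2% fell. The members' median log2 fold change was -0.03, against -0.01 over all genes, and their quartiles were -0.09 and 0.04, against -0.22 and 0.17. All 3 knockdown libraries lay above all 3 NC libraries for 7 members and below them for 9, against 22.6% and 23.5% of all genes and 46.1% in either direction. No member passed a fold change above 2 at an unadjusted P below 0.05 in edgeR or in DESeq2. In edgeR 2.95% of all genes met that rule. An unadjusted P below 0.05 alone was met by 15 of the 46 members in edgeR, against 6317 of all 14832 genes tested. Without replicate 1 of the NC cells, 10 members rose and 5 fell, and the median became 0.03. Calls over all genes also grew there, to 6249 of 15170, against 4954 of 14832 with every library kept. The 5 that fell were called with any library left out, but of the 5 that rose PSMA4, PSMD7 and PSMD8 were not. PSMA4 was lost on leaving out NC replicate 2 or 3 or any NONO_KD replicate (log2 fold change 0.11 to 0.16), PSMD7 on leaving out NC replicate 3 or any NONO_KD replicate (0.13 to 0.15), and PSMD8 on leaving out NC replicate 3 or NONO_KD replicate 2 or 3 (0.14 to 0.17). On TPM values with limma (pseudocount 0.1), 1 member rose and 7 fell, and 2657 of all 13786 genes tested were called. The median there was -0.06 over all genes and -0.07 over the members, so both moved down.

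After PKM2 knockdown more of the members moved, mostly upward and by small amounts. Of the 46, 26 rose, 7 fell and 13 did not pass the test. The called share, 71.7%, was near the 68.4% of all 15524 genes tested, but the directions were unequal: 56.5% of the members rose and 15.2% fell, where 33.6% of all genes rose and 34.7% fell. The median log2 fold change was 0.20 over the members and -0.01 over all genes, and 34 members were above 0. The knockdown libraries lay wholly above the NC libraries for 27 members and wholly below for 9, against 35% and 36.9% of all genes and 71.9% in either direction. PSMB8 and PSMC3 alone passed a fold change above 2 at an unadjusted P below 0.05, which 20.8% of all genes did, and on TPM their log2 ratios were 0.98 and 0.96. Without replicate 3 of PKM2_KD, 27 members rose and 9 fell, the median was 0.16, and 10863 of all 15912 genes tested were called. Calls were lost with single libraries left out for PSMA4 (NC replicate 2 or 3, log2 fold change 0.15 to 0.16), PSMB3 (any NC replicate, 0.20 to 0.21), PSMA1 (any library but PKM2_KD replicate 3, -0.15 to -0.10) and PSME3 (replicate 1 of either group, -0.12 to -0.11).

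The size of the upward shift depended on the scale. With DESeq2 and with RLE size factors in edgeR, 27 members rose and 6 fell, and the members' median was 0.23 and 0.21. On TPM values with limma (pseudocount 0.1), 19 members rose and 10 fell, and 8401 of all 14026 genes tested were called. The median of all genes moved to -0.10 and that of the members to 0.08, so that members and all genes moved down together. The TPM ratio was below the count ratio for all 46 members, by a median of 0.12 on the log2 scale. Fold changes in the PKM2 experiment also went with base composition: the 20% of genes lowest in GC content had a median of 0.12 and the 20% highest -0.24, and 10 of the members lay among the former and 2 among the latter, although the median GC content was 48.0% for members and for all genes. With a trend on GC content and length subtracted, the members' median was 0.08, and 23 of the 26 that rose and all 7 that fell kept their sign.

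**Figure D1:**
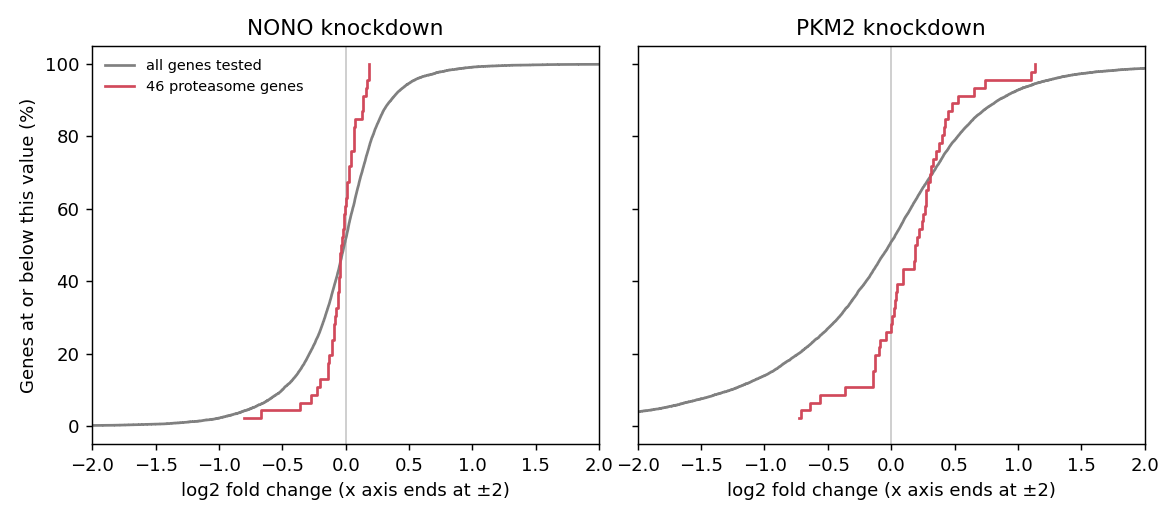
Cumulative share of genes (y axis, percent) at or below each log2 fold change (x axis, drawn from -2 to 2) for the 46 tested proteasome genes and for all genes tested, after NONO knockdown (left) and PKM2 knockdown (right). The members rise steeply around 0 on the left (median -0.03) and are displaced to the right of all genes at their median on the right (0.20 against -0.01).

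**Figure D2:**
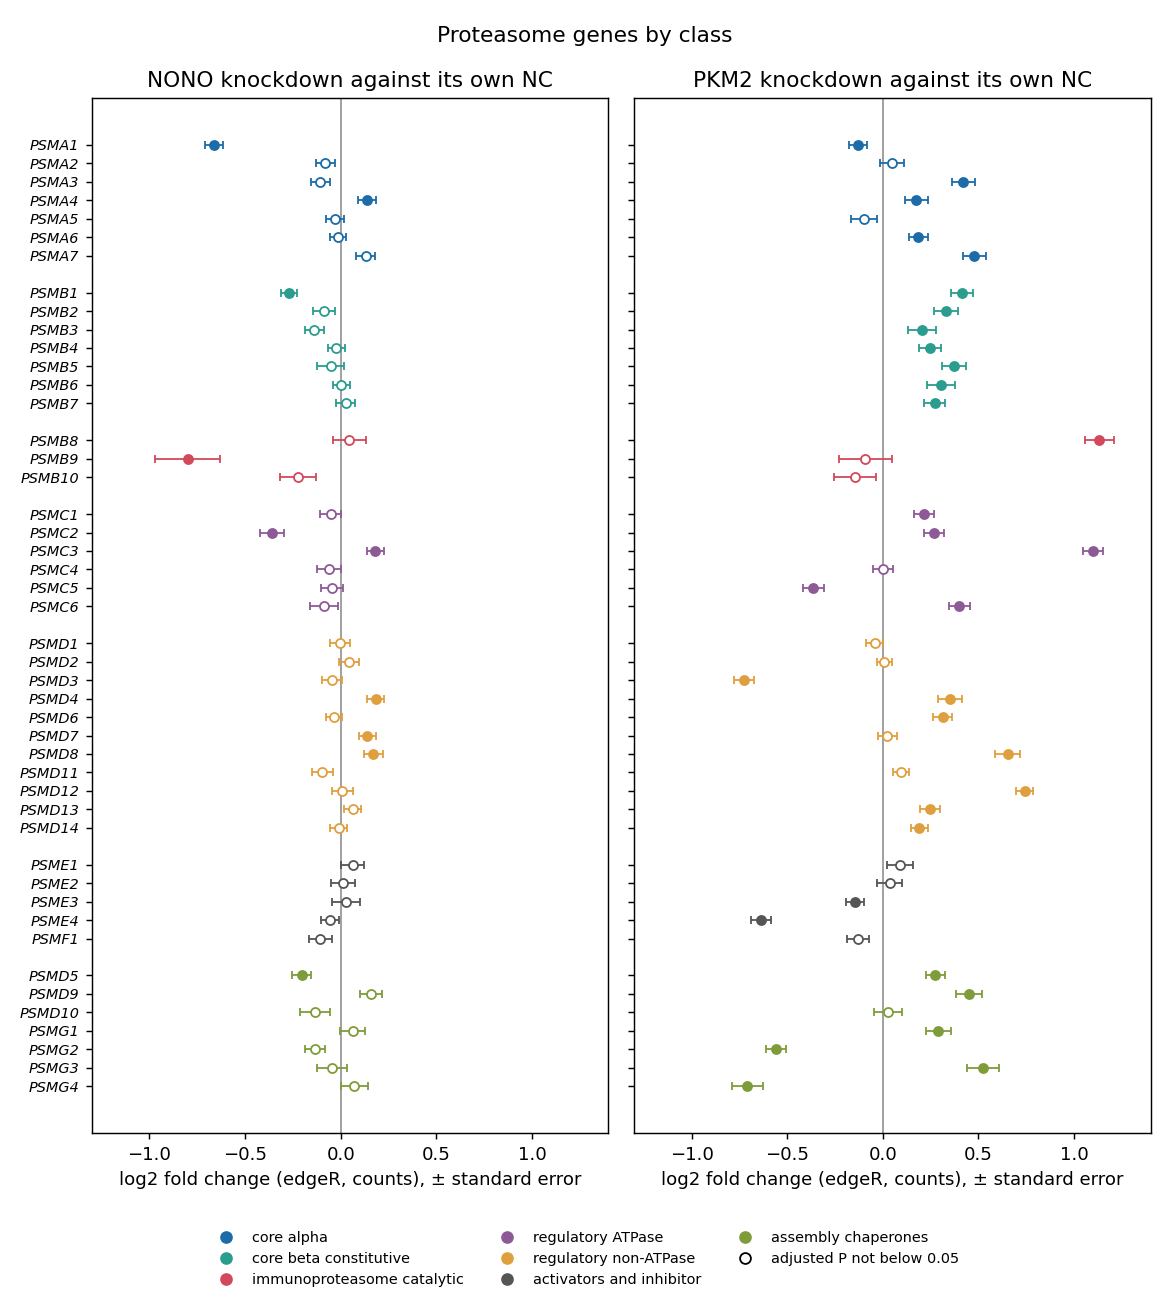
Log2 fold change against the experiment's own NC cells (x axis) with its standard error for each of the 46 tested members, coloured by class, from edgeR on 3 against 3 libraries. Filled points have an adjusted P below 0.05 (10 members on the left and 33 on the right). All 7 constitutive beta subunits lie to the right of 0 after PKM2 knockdown, and PSMB8 and PSMC3 lie farthest right.

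The alpha subunits form the outer rings of the core and gate the entry of substrates. After NONO knockdown PSMA1 fell most among the alpha and constitutive beta subunits. Its CPM was 220, 203 and 199 in the NC libraries and 129, 131 and 133 in NONO_KD. The groups were far apart, with a change of -0.66 on the log2 scale (standard error 0.05, adjusted P = 2.81e-06, edgeR), or 1.58-fold lower. After PKM2 knockdown the gene was at 202, 198 and 193 CPM in NC and 176, 176 and 190 CPM in PKM2_KD, a log2 fold change of -0.13 (adjusted P = 0.0329, edgeR). In GENCODE 29, PSMA1 shares 814 exon bases with AC018523.2 on the same strand, so reads of both can be hard to assign. No other alpha subunit fell in either experiment by the edgeR test.

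PSMA4 rose in both experiments, at 121, 113 and 114 CPM in NC and 124, 127 and 132 CPM in NONO_KD (log2 fold change 0.14, adjusted P = 0.0442, edgeR), and at a log2 fold change of 0.18 in PKM2_KD, which was -0.019 with the GC and length trend subtracted. The NONO groups were separated by only a few CPM. PSMA7 rose most among the alpha subunits after PKM2 knockdown, from 360, 362 and 368 CPM to 472, 488 and 557 CPM (log2 fold change 0.48, standard error 0.06, adjusted P = 2.25e-05, edgeR). PSMA3 and PSMA6 also rose, by 0.42 and 0.19 on the log2 scale. PSMA2 and PSMA5 passed neither test. The class median was -0.03 after NONO and 0.18 after PKM2 knockdown, and with the GC and length trend subtracted the latter was -0.09, so the class median depends on that correction; PSMA7 was then at 0.39, PSMA3 at 0.08 and PSMA6 at -0.090.

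The constitutive beta subunits all rose after PKM2 knockdown, 7 of 7, with log2 fold changes from 0.20 to 0.41 and a median of 0.30. They stayed above 0 on the TPM scale (median 0.19) and with the trend subtracted (median 0.15). PSMB1, a structural beta subunit, rose most. It stood at 217, 218 and 216 CPM in NC and at 267, 285 and 314 CPM in PKM2_KD (log2 fold change 0.41, standard error 0.06, adjusted P = 5.52e-05, edgeR). After NONO knockdown the same gene fell, from 198, 191 and 190 CPM to 159, 160 and 162 CPM (log2 fold change -0.27, standard error 0.04, adjusted P = 4.26e-04, edgeR). In neither experiment did the groups overlap, and the difference between the effects was 0.67 on the log2 scale. PSMB3 had the smallest rise, from 152, 153 and 152 CPM to 158, 171 and 198 CPM. PSMB1 was the only constitutive beta subunit called after NONO knockdown.

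The catalytic constitutive subunits PSMB5, PSMB6 and PSMB7 carry the chymotrypsin-like, caspase-like and trypsin-like activities. PSMB5 stood at 162, 158 and 158 CPM in the NC of PKM2_KD and at 191, 201 and 227 CPM in PKM2_KD (log2 fold change 0.37, standard error 0.06, adjusted P = 2.15e-04, edgeR). PSMB6 stood at 173, 160 and 169 CPM and then at 187, 198 and 235 CPM (log2 fold change 0.30, standard error 0.08, adjusted P = 0.00353, edgeR). PSMB7 stood at 259, 250 and 258 CPM and then at 289, 303 and 334 CPM (log2 fold change 0.27, standard error 0.06, adjusted P = 0.00102, edgeR). In each of the 3 genes every PKM2_KD library was above every NC library, and replicate 3 was the highest.

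None of these 3 subunits was called after NONO knockdown. PSMB5 was at 160, 137 and 128 CPM in NC and at 134, 142 and 134 CPM in NONO_KD (95% interval of the log2 fold change -0.19 to 0.09). PSMB6 was at 143, 137 and 130 CPM and then 135, 136 and 140 CPM (interval -0.09 to 0.10). PSMB7 was at 212, 193 and 191 CPM and then 195, 205 and 208 CPM (interval -0.07 to 0.13). The knockdown libraries lay among the NC libraries in all 3 genes.

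The immunoproteasome subunits were called in different experiments. PSMB8 (LMP7), the counterpart of PSMB5, had the largest rise of all members after PKM2 knockdown. It stood at 23.1, 23.4 and 23.5 CPM in the NC cells and at 48.0, 48.4 and 57.1 CPM in PKM2_KD, so that the lowest knockdown library was far above the highest NC library. This was a rise of 1.13 on the log2 scale (standard error 0.08, adjusted P = 9.46e-08, edgeR), or 2.19-fold, and of 1.05 to 1.18 when single libraries were left out. PSMB8 in the NONO experiment was at 22.5, 24.3 and 24.8 CPM in NC and 23.3, 23.0 and 27.6 CPM in NONO_KD, and these groups overlapped (95% interval of the log2 fold change -0.12 to 0.22). The difference between the experiments was 1.07 (standard error 0.12, adjusted P = 7.74e-07, edgeR interaction).

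PSMB9 (LMP2), the counterpart of PSMB6, behaved otherwise. It fell after NONO knockdown, from 4.27, 5.63 and 4.72 CPM to 2.79, 2.85 and 2.75 CPM (log2 fold change -0.80, standard error 0.17, adjusted P = 0.00408, edgeR), or 1.74-fold. The groups did not overlap, although the gene had at most 118 counts in a library. In the PKM2 experiment it was at 6.65, 5.68 and 7.44 CPM in NC and 6.26, 5.67 and 6.66 CPM in PKM2_KD, and the groups overlapped (interval -0.36 to 0.18). PSMB10 (MECL-1), the counterpart of PSMB7, was called in neither experiment. It was at 12.8, 13.6 and 13.1 CPM in the NC of NONO_KD and 10.7, 12.1 and 11.1 CPM in NONO_KD (log2 fold change -0.23, adjusted P = 0.0899, edgeR), and at 14.5, 14.1 and 15.5 CPM and then 11, 14.2 and 14.7 CPM in the PKM2 experiment (interval -0.36 to 0.07). The NONO groups of PSMB10 were separated, and the PKM2 groups overlapped.

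Set against its constitutive counterpart on the TPM scale, PSMB8 was 12.2%, 12.9% and 12.8% of PSMB5 in the NC of PKM2_KD and 21.3%, 19.9% and 21.2% in PKM2_KD. The other pairs moved the other way in those libraries, where PSMB6 and PSMB7 rose and PSMB9 and PSMB10 were not called. The PSMB10 to PSMB7 ratio went from 6.14%, 6.11% and 6.56% to 3.79%, 4.82% and 4.49%, and the PSMB9 to PSMB6 ratio from 2.85%, 2.65% and 3.27% to 2.64%, 2.17% and 2.09%, with only a narrow gap between the groups in the latter. In the NONO libraries the PSMB9 to PSMB6 ratio was 2.10%, 3.07% and 2.57% in the NC of NONO_KD and 1.49%, 1.55% and 1.43% in NONO_KD. The PSMB10 to PSMB7 ratio there was 6.56%, 7.47% and 7.86% in NC and 6.09%, 6.20% and 5.79% in NONO_KD. The PSMB8 to PSMB5 ratio there was 11.8%, 14.7% and 16.2% in NC and 14.6%, 13.7% and 17.2% in NONO_KD. Of the single-pair ratios, only this last one overlapped between its groups. Such separation was common among single genes, at 46.1% of those tested after NONO knockdown and 71.9% after PKM2 knockdown. With 3 against 3 libraries an exact two-sided permutation test cannot go below P = 0.1. Summed over the 3 pairs, the immunoproteasome subunits amounted to 6.65% ± 0.227 (SD, n = 3) of the constitutive ones in the NC of PKM2_KD and 7.79% ± 0.0544 in PKM2_KD. In the NONO experiment the sum was 7.39% ± 0.838 and 6.69% ± 0.252, and these values overlapped.

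PSMB8 and PSMB9 lie next to each other in the MHC region of chromosome 6, at chr6:32840717-32844703 on the minus strand and chr6:32844136-32859585 on the plus strand (GRCh38, GENCODE 29). PSMB8 shares 139 exon bases with PSMB9 and 618 with the antisense gene PSMB8-AS1. PSMB8-AS1 also rose after PKM2 knockdown (log2 fold change 1.29, adjusted P = 7.77e-04, edgeR), from between 1.37 and 2.25 TPM to between 3.01 and 4.15 TPM. The sources used here do not say that the counting used strand, so reads from the shared stretches cannot be told apart. The promoter windows of the 3 immunoproteasome genes are shown because interferon acts on them through short elements. They come from RefSeq (GRCh38.p14), each 100 bases, 5′ to 3′ on the gene's strand, and capitals mark matches to GAAANNGAA (an interferon response half-site), TTCNNNGAA (a gamma-activated site) or TGACNNNGC (an antioxidant response element), on either strand.
PSMB8, chr6:32844028-32844127, minus strand: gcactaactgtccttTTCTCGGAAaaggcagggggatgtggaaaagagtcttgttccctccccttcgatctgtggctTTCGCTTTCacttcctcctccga
PSMB9, chr6:32854032-32854131, plus strand: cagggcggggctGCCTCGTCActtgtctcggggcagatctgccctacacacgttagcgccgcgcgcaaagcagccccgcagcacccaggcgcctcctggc
PSMB10, chr16:67936831-67936930, minus strand: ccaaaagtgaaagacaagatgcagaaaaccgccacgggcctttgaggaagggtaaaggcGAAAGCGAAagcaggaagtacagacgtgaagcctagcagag
The PSMB8 window belongs to one of its 2 annotated starts and holds a gamma-activated site beginning 65 bases and a half-site beginning 3 bases before that start. The PSMB10 half-site begins 21 bases before its start, and the PSMB9 window holds an antioxidant response element beginning 148 bases before the start. Of the 2 genes with the half-site here, PSMB8 rose after PKM2 knockdown and PSMB10 was not called.

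Among 51 promoters of 42 member genes in that table, the half-site matched 8 (15.7%), against 8.11% of all 35116 promoters of the same length, and the gamma-activated site 8 (15.7%), against 7.66%. The antioxidant response element, to which NFE2L1 and NFE2L2 bind, matched 15 (29.4%), against 13.3%, and the CCAAT box, bound by NF-Y, matched 20 (39.2%), against 34.6%. Matches are descriptions of these letters and not binding sites. Of the 15 genes with an antioxidant response element, 6 rose, 4 fell and 5 were not called after PKM2 knockdown, and of the 27 genes without it 14 rose, 3 fell, 8 were not called and 2 were not tested. After NONO knockdown 1 of the 15 rose and 2 fell. No promoter was available for PSMA7, PSMB1, PSMB6, PSMB7, PSMD4 and PSMG3, which are in neither group. All of these rose after PKM2 knockdown, so the split leaves out genes of a single direction.

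The ATPase subunits form the ring that unfolds substrates. PSMC3 was the member that rose most beside PSMB8. It stood at 137, 140 and 142 CPM in the NC of PKM2_KD and at 283, 296 and 319 CPM in PKM2_KD, a wide separation. This was a rise of 1.10 on the log2 scale (standard error 0.05, adjusted P = 7.45e-09, edgeR), or 2.14-fold, and of 1.06 to 1.15 when single libraries were left out. PSMC3 also rose after NONO knockdown, from 174, 161 and 166 CPM to 188, 192 and 187 CPM (log2 fold change 0.18, standard error 0.04, adjusted P = 0.00813, edgeR). The difference between the experiments was 0.91 (standard error 0.07, adjusted P = 1.54e-08, edgeR interaction).

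The other ATPase genes went in several directions. PSMC5 fell after PKM2 knockdown, from 237, 234 and 230 CPM to 171, 177 and 197 CPM (log2 fold change -0.36, standard error 0.06, adjusted P = 1.19e-04, edgeR), with no overlap. Its exons share 874 bases with those of FTSJ3 on the opposite strand, and FTSJ3 rose by 0.36. PSMC2 rose after PKM2 knockdown, from 139, 130 and 136 CPM to 161, 155 and 173 CPM (log2 fold change 0.27, adjusted P = 9.07e-04, edgeR), and fell after NONO knockdown, from 133, 116 and 111 CPM to 91.3, 93.3 and 95.6 CPM (log2 fold change -0.36, standard error 0.06, adjusted P = 0.00125, edgeR). The PSMC2 libraries did not overlap in either experiment. PSMC6 and PSMC1 rose after PKM2 knockdown by 0.40 and 0.22, and PSMC4 was not called in either experiment. PSMC1 is less certain than the rest, since it shares 4671 exon bases with NRDE2 on the opposite strand and has processed copies: PSMC1P5 ranged from 0 to 168 TPM between libraries.

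The non-ATPase subunits form the base and lid of the regulatory particle. In the PKM2 experiment 6 of the 11 rose, PSMD3 fell and 4 were not called, with a median of 0.19. PSMD12, a lid subunit, rose from 174, 167 and 169 CPM to 284, 279 and 290 CPM (log2 fold change 0.74, standard error 0.04, adjusted P = 4.08e-08, edgeR). The PSMD12 libraries were tightly grouped and well apart, but the ratio of its mean TPM was smaller, 0.37 on the log2 scale. PSMD8, also of the lid, rose from 114, 115 and 117 CPM to 170, 172 and 202 CPM (log2 fold change 0.65, standard error 0.07, adjusted P = 3.16e-06, edgeR). PSMD3, another lid subunit, had the largest fall of all members in this experiment, from 228, 216 and 219 CPM to 132, 126 and 143 CPM (log2 fold change -0.73, standard error 0.05, adjusted P = 2.64e-07, edgeR), or 1.65-fold lower. Subunits of the same lid were thus raised and lowered in the same libraries.

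PSMD4, the ubiquitin receptor, rose in both experiments, by 0.35 after PKM2 knockdown and from 156, 153 and 146 CPM to 174, 175 and 167 CPM after NONO knockdown (log2 fold change 0.18, standard error 0.04, adjusted P = 0.00759, edgeR). PSMD8 rose by 0.17 and PSMD7 by 0.14 after NONO knockdown, and no non-ATPase subunit fell. The lowest log2 fold change there was that of PSMD11, at 245, 218 and 214 CPM in NC and 205, 215 and 214 CPM in NONO_KD (-0.10, adjusted P = 0.204, edgeR), with overlapping libraries. PSMD14, the deubiquitinase of the lid, rose by 0.19 after PKM2 knockdown, which the GC and length trend reduced to -0.01. PSMD1 and PSMD2, the large base subunits that bind ubiquitin receptors and substrates, were not called in either experiment. Their intervals after PKM2 knockdown were -0.13 to 0.04 and -0.07 to 0.09.

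The promoter windows of PSMC3, PSMD12 and PSMD3 are shown since these regulatory genes moved most on counts after PKM2 knockdown. The windows come from RefSeq (GRCh38.p14, 100 bases each, 5′ to 3′ on the gene's strand). Capitals mark CCAAT in PSMC3, TGACNNNGC in PSMD12, and TTCNNNGAA and then TGACNNNGC in PSMD3.
PSMC3, chr11:47426470-47426569, minus strand: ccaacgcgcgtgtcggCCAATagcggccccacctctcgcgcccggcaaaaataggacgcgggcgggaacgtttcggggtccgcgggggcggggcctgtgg
PSMD12, chr17:67366658-67366757, minus strand: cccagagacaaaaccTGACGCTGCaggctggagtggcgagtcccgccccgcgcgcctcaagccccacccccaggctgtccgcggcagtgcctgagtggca
PSMD3, chr17:39980697-39980796, plus strand: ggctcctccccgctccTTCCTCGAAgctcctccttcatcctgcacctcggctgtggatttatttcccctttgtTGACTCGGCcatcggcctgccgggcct
The marked matches begin 114 bases before the start in PSMC3, 165 in PSMD12, and 94 and 37 in PSMD3. PSMD12, which rose, and PSMD3, which fell, both hold an antioxidant response element.

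**Figure D3:**
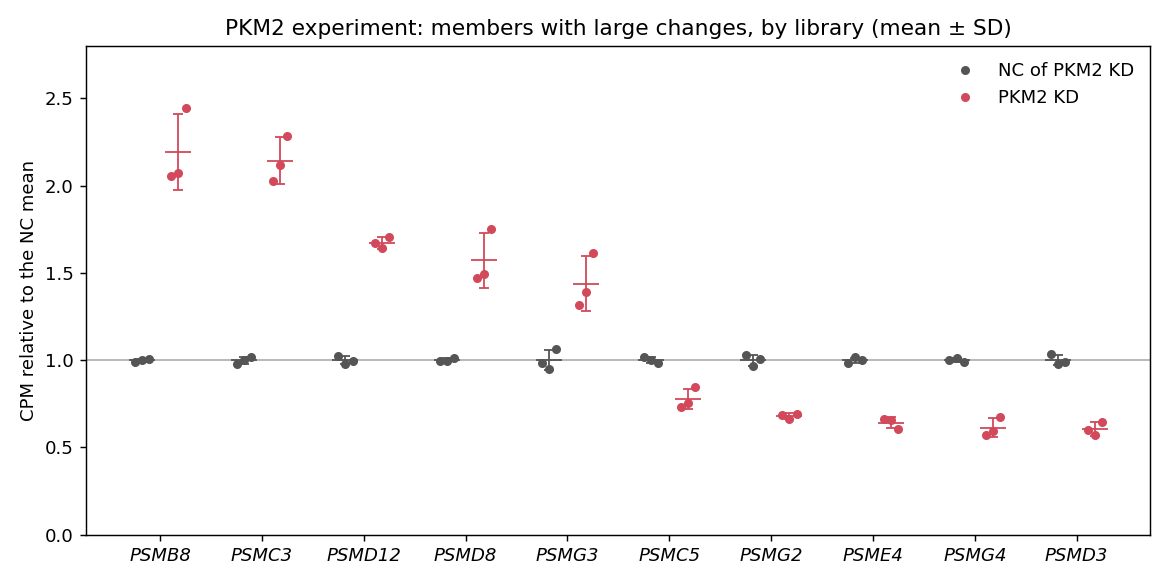
CPM of 10 members relative to the mean of the NC of PKM2_KD (y axis, starting at 0) in each library of the PKM2 experiment, with the mean and SD of the 3 libraries. PSMB8 and PSMC3 lie above 2 in all PKM2_KD libraries, PSMG2, PSME4, PSMG4 and PSMD3 lie below 0.7, and replicate 3 is the highest PKM2_KD point for most of the genes.

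The alternative caps did not rise. PSME1 and PSME2, whose proteins form the interferon-inducible activator, were called in neither experiment. PSME1 was at 53.2, 51.9 and 55.9 CPM in NC and 53.8, 55.1 and 62.5 CPM in PKM2_KD (interval of the log2 fold change -0.04 to 0.22), and at 47.2, 49.6 and 53.1 CPM and then 53.7, 50.5 and 52.2 CPM in the NONO experiment. PSME2 was at 71.2, 69.8 and 70.6 CPM and then 69.6, 67.3 and 79.9 CPM in the PKM2 experiment (interval -0.09 to 0.17), and at 51.7, 51.6 and 50 CPM and then 49.9, 48.8 and 56.0 CPM in the NONO experiment. The libraries of both genes overlapped throughout.

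PSME4 (PA200), a nuclear activator that takes part in histone degradation, fell after PKM2 knockdown from 114, 118 and 116 CPM to 76.8, 76.0 and 70.2 CPM (log2 fold change -0.64, standard error 0.05, adjusted P = 5.21e-07, edgeR), or 1.56-fold lower. Its values in the NONO experiment were 135, 125 and 124 CPM and then 125, 123 and 123 CPM (-0.06, adjusted P = 0.383, edgeR). PSME3 (PA28 gamma), the nuclear activator of the same family as PSME1, fell slightly after PKM2 knockdown, from 288, 267 and 270 CPM to 244, 253 and 250 CPM (log2 fold change -0.14, adjusted P = 0.0181, edgeR). Its values in the NONO experiment were 307, 245 and 256 CPM and then 266, 274 and 283 CPM, with overlap. The inhibitor PSMF1 was not called in either experiment.

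Assembly chaperones hold the rings together while they form and then leave. PSMG3 and PSMG4 act as a pair in building the alpha ring, and they moved apart after PKM2 knockdown. PSMG3 rose from 24.2, 23.4 and 26.2 CPM to 32.3, 34.1 and 39.7 CPM (log2 fold change 0.52, standard error 0.08, adjusted P = 1.57e-04, edgeR). PSMG4 fell from 25.8, 26.2 and 25.5 CPM to 14.7, 15.3 and 17.4 CPM (log2 fold change -0.71, standard error 0.08, adjusted P = 8.11e-06, edgeR). The other pair, PSMG1 and PSMG2, also split: PSMG1 rose by 0.29, and PSMG2 fell from 72.7, 68.3 and 71.3 CPM to 48.4, 46.7 and 48.9 CPM (log2 fold change -0.56, standard error 0.05, adjusted P = 2.09e-06, edgeR). No library of these 4 genes overlapped between the groups. The exons of PSMG2 share 468 bases with CEP76, and those of PSMG4 share 1388 bases with SLC22A23, on the opposite strand.

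The chaperones of the ATPase ring were PSMD5, PSMD9 and PSMD10. PSMD9 rose by 0.45 after PKM2 knockdown and was at 48.8, 44.5 and 46.8 CPM in NC and 49.9, 53.0 and 53.4 CPM in NONO_KD (log2 fold change 0.16, adjusted P = 0.0541, edgeR). PSMD5 fell after NONO knockdown, from 119, 109 and 108 CPM to 95.9, 97.7 and 98.0 CPM (log2 fold change -0.20, standard error 0.05, adjusted P = 0.00849, edgeR). After PKM2 knockdown its counts rose from 111, 103 and 101 CPM to 129, 125 and 126 CPM (0.28, adjusted P = 4.76e-04, edgeR), whereas the ratio of its mean TPM was -0.13, so that the direction of PSMD5 depends on the scale. PSMD10 (gankyrin) was not called in either experiment. The median of the 7 chaperones after PKM2 knockdown was 0.28 on counts and -0.13 on TPM.

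Across the 46 members, which are not independent replicates, the log2 fold changes of the experiments had a Pearson r of 0.26 and a Spearman rho of 0.28, given as a description, and 26 members had the same sign in both. Neither these values nor the joint calls below were computed over all genes, of which 33.4% were called after NONO and 68.4% after PKM2 knockdown. PSMA4, PSMC3, PSMD4 and PSMD8 rose in both and PSMA1 fell in both. With single libraries left out, calls were lost for PSMA4 in both experiments, PSMD8 after NONO knockdown and PSMA1 after PKM2 knockdown. PSMB1, PSMC2 and PSMD5 fell after NONO and rose after PKM2 knockdown. No member rose after NONO and fell after PKM2 knockdown, and 11 were called in neither. In the direct test, the effect of PKM2 knockdown was higher than that of NONO knockdown for 25 members and lower for 5 (PSMC5, PSMD3, PSME4, PSMG2 and PSMG4), or 65.2% in all, against 53.1% of all 15995 genes tested, 25.7% higher and 27.4% lower.

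Summed over all members, proteasome RNA was 9526, 9513 and 9411 TPM in the NC of PKM2_KD and 10076, 10177 and 10462 TPM in PKM2_KD. In the NONO experiment the sums were 8940, 8274 and 8233 TPM in NC and 7906, 7983 and 8135 TPM in NONO_KD. Every PKM2_KD library was above its NC libraries and every NONO_KD library below its own. On the TPM scale the median log2 fold change of all genes was -0.06 after NONO knockdown and -0.10 after PKM2 knockdown (limma, pseudocount 0.1). In the NONO experiment the gap was smaller than the distance of NC replicate 1 from the other 2 NC libraries. The exact two-sided permutation test could not go below P = 0.1 here either.

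Genes that make, regulate or feed the proteasome were read from lists, whose counts stand against 68.4% of all genes called after PKM2 knockdown (33.6% raised, 34.7% lowered) and 33.4% after NONO knockdown (16.2% raised, 17.2% lowered). Among 11 assembly and regulatory factors, 5 rose and 2 fell after PKM2 knockdown, near the 68.4% of all genes called, and 4 rose and 2 fell after NONO knockdown, where 33.4% were called (medians 0.04 and 0.14). The ubiquitin receptor ADRM1 rose by 0.57 after PKM2 knockdown, ZFAND2A, a stress-inducible proteasome partner, by 0.56, and ZFAND5, a proteasome activator, by 0.54. POMP, the core assembly factor, rose by 0.47. FBXO7, which binds the inhibitor PSMF1, fell in both experiments (-0.23 after PKM2 and -0.24 after NONO knockdown). ECPAS, a proteasome adaptor, fell by 0.31 after PKM2 knockdown and rose by 0.34 after NONO knockdown.

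The 6 genes of transcriptional control were NFE2L1, NFE2L2, DDI2, NGLY1, STAT3 and NFYA. After PKM2 knockdown 4 rose and 1 fell, and after NONO knockdown 3 rose and 2 fell, against 68.4% and 33.4% of all genes called. NFE2L1, the factor known for raising proteasome genes, fell after PKM2 knockdown (-0.24, adjusted P = 0.00105, edgeR) and rose after NONO knockdown (0.34, adjusted P = 1.98e-04, edgeR). NFE2L2 went the other way, 0.35 and -0.13. STAT3 rose by 1.00 and 0.46 and NFYA, a subunit of NF-Y, by 0.70 and 0.65. These are RNA levels and say nothing of the activity of the factors.

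Of 12 ubiquitin receptors and processing genes, 7 rose and 2 fell after PKM2 knockdown (median 0.32), where 68.4% of all genes were called and 33.6% rose, and 3 rose and 1 fell after NONO knockdown (median 0.01). The shuttle receptor UBQLN1 rose by 0.72 after PKM2 knockdown and the ligase UBE3C by 0.68. UBQLN4 and the proteasome-bound deubiquitinase USP14 fell after PKM2 knockdown, with log2 fold changes of -1.08 and -0.64. Of the genes that encode ubiquitin, UBB rose by 0.65 after PKM2 knockdown and was not called after NONO knockdown, and RPS27A rose by 0.20 in each experiment.

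Of the 11 interferon-linked partners of the immunoproteasome, 6 rose and 1 fell after PKM2 knockdown (median 0.50), a called share near the 68.4% of all genes, of which 33.6% rose. IRF1, an interferon response factor known to act on immunoproteasome genes, rose by 0.99 (adjusted P = 1.31e-07, edgeR), STAT2 by 0.84, ERAP2 by 0.81 and B2M, the light chain of MHC class I, by 0.79. TAPBP, the tapasin gene, fell, with a log2 fold change of -1.60. TAP1 and TAP2, the peptide transporter genes that neighbour PSMB8 and PSMB9, had log2 fold changes of 0.06 and 0.05 and were not called. After NONO knockdown 1 rose and 4 fell (median -0.16), and TAP1 and TAP2 were among those that fell, with log2 fold changes of -0.33 and -0.39 beside the -0.80 of PSMB9.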

How the data were processed

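RNA was sequenced (paired reads of 150 bases, poly(A) selection) in 12 libraries. The submitters' notes name hg19, fastp, HISAT2, StringTie, RSEM, DESeq2, edgeR and limma without versions or roles. The authors deposited 1 table per experiment, which gives each gene an estimated count and a TPM level in every library. The authors' columns of fold changes, P values, calls and group means were not used. Strandedness, read assignment settings and tool versions are not given in the sources used here.

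Estimated counts were rounded and tested with edgeR 4.0.16 (TMM scaling, filterByExpr, quasi-likelihood test, Benjamini-Hochberg over all genes, call at adjusted P below 0.05), each experiment against its own NC. The difference between the effects came from a fit over 12 libraries. CPM values are scaled by TMM. The intervals of log2 fold changes use a normal approximation, with the standard error taken from the edgeR test statistic. They are approximate and somewhat narrower than the test itself would give. Alternatives were DESeq2 1.42.0, limma 3.58.1 on log2(TPM + 1) and log2(TPM + 0.1), other filters and scaling, a replicate block, each library left out, and a trend on GC content and length (20 bins each) subtracted. The fits were tested on simulated data. Library totals were 19861762 to 20981712 counts in the NONO experiment and 24097948 to 28455268 in the PKM2 experiment.

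Locations and exon overlaps come from GENCODE 29 (GRCh38), matched by gene identifier for all 48 members, and promoters (250 bases before to 50 after a start) from RefSeq. The tables hold no coordinates. Values in every library are given for the catalytic subunits, PSME1 to PSME4 and the largest rise and fall of each class, and pathway lists by counts and their largest changes. PSMD8, PSMG2 and a few others were added after their values were seen. The members, classes and lists were chosen with earlier results of these data known. A few genes of the pathway and marker lists are not reported here.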

Additional observations from a re-analysis of the deposited data

Results flagged for a closer look

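The effect of PKM2 knockdown differed from that of NONO knockdown in 30 of the 46 members, or 65.2% (edgeR interaction over 12 libraries, adjusted P below 0.05). In the same contrast 53.1% of all 15995 genes tested were called. The values are log2 fold changes after PKM2 minus after NONO knockdown, each effect taken against its own NC cells. Among the alpha subunits the difference was 0.52 for PSMA1, 0.52 for PSMA3, 0.19 for PSMA6 and 0.33 for PSMA7. All constitutive beta subunits differed, with 0.67 for PSMB1, 0.40 for PSMB2, 0.33 for PSMB3, 0.26 for PSMB4, 0.41 for PSMB5, 0.29 for PSMB6 and 0.23 for PSMB7. For the immunoproteasome subunits the difference was 1.07 for PSMB8 and 0.70 for PSMB9, the first from a rise after PKM2 knockdown and the second from a fall after NONO knockdown.

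In the regulatory ring the values were 0.26 for PSMC1, 0.61 for PSMC2, 0.91 for PSMC3, -0.33 for PSMC5 and 0.47 for PSMC6. Among the non-ATPase subunits they were -0.69 for PSMD3, 0.34 for PSMD6, 0.47 for PSMD8, 0.18 for PSMD11, 0.72 for PSMD12 and 0.19 for PSMD14. PSME4 had -0.59. The chaperones had 0.46 for PSMD5, 0.28 for PSMD9, -0.44 for PSMG2, 0.56 for PSMG3 and -0.79 for PSMG4. The difference was not called for PSMA6 and PSMD14 without NONO_KD replicate 2 or replicate 3 of the NC of PKM2_KD (0.18 to 0.19 for each), for PSMB7 without NONO_KD replicate 1 (0.22), or for PSMD11 on leaving out any single library of 9 of the 12 (0.12 to 0.19). Each experiment had its own NC cells, so a property of an experiment that acts alike on its groups cancels, and a property of a single group cannot be told apart from the knockdown.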

How the results depend on the processing

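The labels number the replicates alike in each group. Same-numbered libraries did not deviate together (correlations from -0.10 to 0.04, against -0.11 to 0.13 for other pairs), which shows no pairing but cannot exclude it. With the replicate block, 3 members rose and 5 fell after NONO knockdown, 26 and 6 after PKM2 knockdown, and 22 were higher and 5 lower in the difference. With any library left out, 2 to 10 rose and 5 fell after NONO knockdown (10 without replicate 1 of the NC cells), 24 to 27 rose and 5 to 9 fell after PKM2 knockdown, and the difference was higher for 22 to 28 and lower for 5 to 7. With limma on TPM, 1 member rose after NONO knockdown under both pseudocounts and 0 with no filter, when 17 rose after PKM2 knockdown. With no filter, 1699 of 27378 genes were called in either direction after NONO knockdown and 8312 of 29763 after PKM2 knockdown. Requiring a fold change above 2 at an unadjusted P below 0.05 left 0 and 0 members risen and fallen after NONO knockdown, 2 and 0 after PKM2 knockdown, and 1 and 0 in the difference. Of all genes, 2.95% met that rule after NONO and 20.8% after PKM2 knockdown. Requiring an adjusted P below 0.05 and at least 1.5-fold left 0 and 2, 4 and 3, and 6 and 3. The share of all genes was not computed for the 1.5-fold rule, nor for the 2-fold rule in the difference. Those counts therefore do not show whether the members differed from other genes.

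Class medians on TPM (limma) after NONO knockdown were -0.089 for alpha (-0.091 with a pseudocount of 0.1) and -0.30 for immunoproteasome subunits (-0.31). After PKM2 knockdown they were 0.072 for alpha (0.073), 0.19 for constitutive beta, -0.15 for immunoproteasome (-0.16), 0.12 for ATPase, 0.062 for non-ATPase subunits (0.063) and -0.13 for chaperones. With the GC and length trend subtracted, medians after PKM2 knockdown were -0.089 for alpha, 0.15 for constitutive beta, 0.14 for non-ATPase subunits, -0.053 for activators and 0.20 for chaperones. Leaving out single libraries moved the NONO medians of constitutive beta from -0.12 to 0.026 and of non-ATPase subunits from -0.026 to 0.072, and the PKM2 medians of immunoproteasome subunits from -0.18 to 0.0032, of activators from -0.16 to -0.091 and of chaperones from 0.23 to 0.31.

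After PKM2 knockdown the sign of PSMA4 (-0.019), PSMA6 (-0.090) and PSMD14 (-0.0058) turned with the trend subtracted, as did that of PSMA6 in the difference (-0.043), and the sign of PSMD5 (-0.13) and PSMD7 (-0.12) turned on TPM. PSMD7 was not called on counts (0.02), and its shift was close to the median gap between TPM and count ratios over the members (-0.12), on a scale where the median of all genes was -0.094. The causes were not tested. Depth limits PSMB9, which had at most 118 counts in a library of the NONO experiment, and leaves PSMA8 and PSMB11 without a test.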
